A study of Mus musculus with 4 samples.

Results

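Interferon pathway genes were examined at the resolution of single alleles in F123-ESCs, with Ifitm1, Ifitm2, Ifitm3, Stat2, Irf1, Irf3, Irf9, Isg15 and Bst2 as the 9 genes described in full. The genes were chosen by their symbol, and the 9 rows were taken from the 24026 genes listed. F123-ESCs are a male mouse embryonic stem cell line from the F1 generation of a cross of S129 and CAST mice. By this origin, each autosome comes once from S129, the maternal strain, and once from CAST, the paternal strain. The copies of each chromosome in these libraries were not tested. The median log2 difference, S129 minus CAST, was 0.69 on chromosome 16, 0.19 on 6, -0.25 on 8 and -0.74 on 3. On the other autosomes it lay between -0.07 and 0.01. The line comes from 1 direction of the cross, and a difference between its alleles by strain cannot be told apart from a difference by parent of origin. RNAseq of polyA-enriched RNA was available for 4 libraries, replicates 1 to 4, which all had the genotype S129/CAST and were untreated. The cells were grown on feeder fibroblasts in medium with LIF, passaged without feeders before harvest, and collected about 48 h after plating. The labels do not say that the libraries come from separate cultures, so that the p-values measure the spread between these libraries, which may be technical.

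Interferons are cytokines that are released by cells that sense viral nucleic acids, and they bind receptors whose Janus kinases, JAK1, JAK2 and TYK2, phosphorylate STAT proteins. After a type I interferon, STAT2 and IRF9 act in the complex ISGF3, which binds the interferon-stimulated response element (ISRE) in the promoters of target genes, whereas the response to interferon gamma runs through the gamma-activated sequence (GAS). IRF3 turns on interferon genes after sensing, and IRF1 binds ISRE-like sites. IFITM proteins in membranes hinder the entry of viruses, ISG15 is a ubiquitin-like modifier, and BST2, also called tetherin, holds budding virions at the cell surface. Pluripotent cells are known to respond weakly to interferon, and several interferon-stimulated genes, Ifitm1 and Ifitm3 among them, are known to be active in stem cells without it.

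The promoters of the 9 genes were searched for the letters of both elements, in order to show what sequence lies beside the genes whose levels follow. The window ran from 250 bases before to 50 bases after each of 11 start sites in RefSeq (GRCm38.p6). This is the reference sequence, and the letters on the S129 and CAST alleles, which may differ from it, were not examined. The ISRE was searched as GAAANNGAAA and the GAS as TTCNNNGAA, on both strands, and matches that overlap each other were counted. Among all 32851 promoters of this length, 3.44% held the ISRE letters and 8.30% the GAS letters. The ISRE letters were found at 5 of the 9 genes (Isg15, Bst2, Stat2, Ifitm2 and Ifitm3) and the GAS letters at 3 (Irf1, Bst2 and Ifitm3). No match lay in the windows of Ifitm1, Irf3 and Irf9, which says only that these letters are not there. One window is shown for each gene with a match, 5′ to 3′ on the strand of the gene, with the fixed letters of the ISRE in capitals, or those of the GAS for Irf1.
Isg15, chr4:156200859-156200918, minus strand: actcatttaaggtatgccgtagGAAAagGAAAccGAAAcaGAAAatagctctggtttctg
Bst2, chr8:71537563-71537622, minus strand: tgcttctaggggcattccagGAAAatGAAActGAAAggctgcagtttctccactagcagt
Stat2, chr10:128270258-128270317, plus strand: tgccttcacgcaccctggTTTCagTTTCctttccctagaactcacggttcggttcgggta
Ifitm2, chr7:140955992-140956021, minus strand: taacccaccaacagGAAAagGAAAttgcta
Ifitm3, chr7:141010715-141010744, minus strand: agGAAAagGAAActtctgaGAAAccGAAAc
Irf1, chr11:53769904-53769963, plus strand: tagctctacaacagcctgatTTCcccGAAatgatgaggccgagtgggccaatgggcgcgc
Isg15 had 3 overlapping ISRE matches, whose first letters lay between 78 and 66 bases before the start, counted as -78 to -66. Bst2 had 2 overlapping matches at -130 and -124. The match of Stat2 lay at -222 on the opposite strand, that of Ifitm2 at -46, and the 2 of Ifitm3 after the start, at 3 and 20. The GAS letters began at -90 in Irf1, at -136 in Bst2 and at 14 in Ifitm3, and in Bst2 and Ifitm3 they overlapped an ISRE match. Without the 50 bases after the start, the ISRE letters remained at 4 of the 9 genes and the GAS letters at 2.

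The values are RPKM per allele, that is, reads that cover a SNP between the strains and were assigned to that allele, scaled by gene length in kilobases and by the total of reads of that allele in that library. The 8 columns were made from 16716721 to 28772351 reads, with the fewest in replicate 4 on both alleles. In these male cells the X chromosome is maternal, and 0.112% to 0.132% of the reads of X-linked genes were assigned to CAST. The pluripotency markers were present, with all 10 genes at or above 1 RPKM and a summed level of 8683 to 10176 RPKM in the libraries. Most of this sum came from Dppa5a, at 7111 RPKM. With the lengths of all annotated exons, all 10 stayed at or above 1 RPKM and the summed level was 7526 to 9200 RPKM. Of 12 fibroblast markers, 9 reached 1 RPKM and none was listed at 0. Their summed level was 184 to 231 RPKM, most of it from Col1a2, at 166 ± 17.5 RPKM (SD, n = 4 libraries). The RPKM of Col1a2 used a length of 850 bp, and with the 12426 bp of all its annotated exons it was at 11.3 RPKM. With such lengths for the whole list, 6 markers reached 1 RPKM and the summed level was 28.7 to 35.3 RPKM. Of 10 haematopoietic markers 2 reached 1 RPKM, and the summed level was 12.7 to 16.5 RPKM. With the lengths of all annotated exons 1 reached 1 RPKM, and the summed level was 10.8 to 14.0 RPKM. The part of feeder RNA in the levels of the interferon genes was not tested. Here and in what follows, a level is the mean of both alleles, and an error is the SD over 4 libraries unless another is named.

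The levels of the 9 genes spanned 3 orders of magnitude, and the 2 highest belonged to neighbouring genes of chromosome 7. Ifitm3 reached 645 ± 148 RPKM and Ifitm1 447 ± 70.9 RPKM, and 0.620% and 0.920% of all listed genes lay above them. Bst2 was at 38.2 ± 2.41 RPKM, followed by Irf3 at 24.0 ± 1.80 RPKM, Stat2 at 19.3 ± 0.996 RPKM and Irf1 at 14.3 ± 2.00 RPKM. Isg15 and Irf9 were close to each other at 5.53 ± 0.808 and 5.46 ± 0.587 RPKM, and Ifitm2 was lowest at 0.455 ± 0.169 RPKM. Each gene lay above the next one in the order in 4 of 4 libraries, except that Isg15 lay above Irf9 in 2 of 4. With 4 libraries the exact two-sided sign-flip permutation test cannot give less than p = 0.13, which it gave for the other 7 neighbouring pairs, and for Isg15 and Irf9 it gave p = 0.875. The mean of Isg15 fell under that of Irf9 without replicate 4 (5.19 against 5.72 RPKM) and with the values rescaled to one sum per column. In bulk RNA, fewer cells that express a gene and less RNA per cell cannot be told apart. The level of a gene in this scale depends on how many SNPs its transcript holds and on the length used. The length recovered from the values was that of the first annotated transcript, which for Stat2 is a retained-intron transcript of 736 bp, whereas the 2 coding transcripts have 4394 and 4397 bp. With the 5926 bp of all annotated exons of Stat2 the level was 2.40 RPKM, and Stat2 moved from the fifth to the eighth place. The lengths of the other 8 genes changed by factors of 1 to 1.86, and their order did not change.

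**Figure D1:**
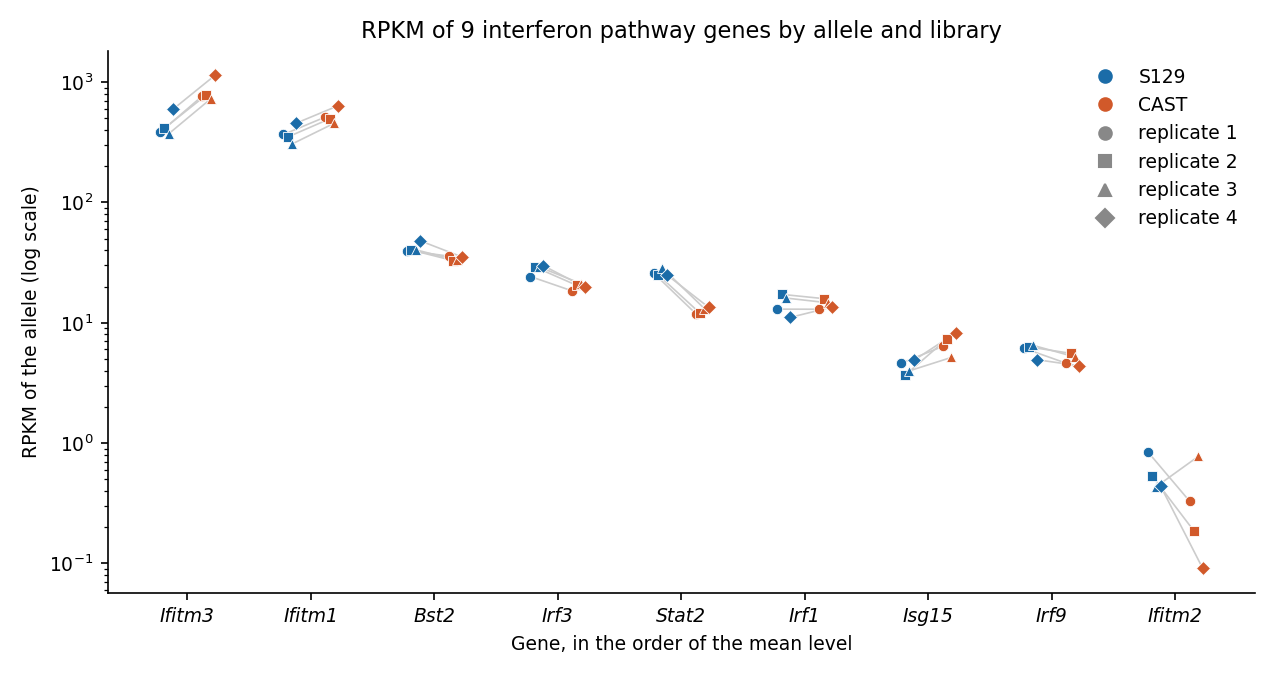
RPKM of each allele (log scale) for the 9 genes, ordered by mean level; each gene has 4 S129 points and 4 CAST points, lines join both alleles of one library and the symbols mark the replicates. Ifitm3 and Ifitm1 lie between 306 and 1136 RPKM with the CAST points above the S129 points of the same library, Stat2, Irf3, Bst2 and Irf9 have S129 above CAST in each library, and Ifitm2 is spread between 0.0913 and 0.849 RPKM.

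The alleles were compared within each library on log2(RPKM + 0.1), with S129 minus CAST, by limma fitted across 13341 genes whose alleles summed to at least 1 RPKM. Of the 9 genes 8 passed this filter, and 7 of the 8 were called at an adjusted p under 0.05, 4 with S129 higher (Stat2, Irf3, Bst2 and Irf9) and 3 with CAST higher (Ifitm3, Isg15 and Ifitm1). Calls were frequent in this line, with 62.7% of all genes tested called, or 61.4% of the 12869 autosomal genes, so that a call alone does not set these genes apart. S129 was higher at 31.4% of all genes tested and CAST at 31.3%. The values of the alleles did not overlap at 5 of the 8 genes, against 45.6% of all genes tested. The median size of the difference, on the log2 scale, was 0.50 for the 8 genes, 0.31 for all genes tested and 0.29 for autosomal genes. The median log2 difference of autosomal genes was -0.02.

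Ifitm3 (ENSMUSG00000025492, chr7:141009586-141010770 in mm10, minus strand) encodes the IFITM protein best known for restricting viral entry from endosomes. On S129 it was at 381, 412, 371 and 593 RPKM in replicates 1 to 4, and on CAST at 761, 782, 724 and 1136 RPKM. The lowest CAST value lay above the highest S129 value, and replicate 4 was highest on both alleles. CAST was 1.94-fold higher, with a log2 difference of -0.96 ± 0.031 (SE, limma, adjusted p = 4.83e-05) and the same direction in 4 of 4 libraries. S129 made up 34.1% to 35.5% of 17768 to 21818 reads per library, and 34.9% of 79689 reads pooled (Clopper-Pearson 95% interval 34.5% to 35.2%). The intervals hold for counting error alone, because reads copied by PCR are not separate molecules.

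Ifitm1 (ENSMUSG00000025491, chr7:140967221-140969825, plus strand) encodes a related protein that is known to act at the plasma membrane. It was at 367, 350, 306 and 456 RPKM on S129 and at 513, 495, 454 and 637 RPKM on CAST in replicates 1 to 4. The ranges of the alleles touched, because replicate 4 of S129 lay above replicate 3 of CAST, but within each library CAST was higher. The log2 difference was -0.51 ± 0.033 (SE, limma, adjusted p = 0.000364), which is 1.42-fold, with S129 at 42.2% of 73048 reads (95% interval 41.9% to 42.6%).

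Ifitm2 (ENSMUSG00000060591, chr7:140954837-140955987, minus strand) lies next to Ifitm1 on its other side. It was measured from 59 reads, of which S129 had 16, 9, 7 and 5 and CAST 6, 3, 12 and 1 in replicates 1 to 4, that is, 0.849, 0.535, 0.435 and 0.439 RPKM against 0.329, 0.186, 0.775 and 0.0913 RPKM. S129 was higher in 3 libraries and CAST in replicate 3, and the groups overlapped. The gene did not pass the filter, and without a filter its log2 difference of 0.77 ± 0.42 (SE, limma) had an adjusted p of 0.221. A difference between the alleles of Ifitm2 was not detectable at this depth, where the interval of the pooled S129 share ran from 49.1% to 75%.

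The allele difference was smaller for Ifitm1 than for Ifitm3 in each library, by 0.45 ± 0.052 on the log2 scale. The difference of Ifitm2 lay above that of Ifitm3 by 1.73 ± 0.99 in 4 of 4 libraries and above that of Ifitm1 by 1.28 ± 0.96 in 3 of 4. These 3 pairs were compared by the exact two-sided sign-flip permutation test, which gave p = 0.13 for both pairs with Ifitm3, the smallest 4 libraries allow, and p = 0.25 for Ifitm2 and Ifitm1 (Benjamini-Hochberg over the 3 pairs, 0.19, 0.19 and 0.25).

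The 3 Ifitm genes are related in sequence, and reads of related genes can be hard to place. The coding sequences of GENCODE M21 were identical at 81.9% of aligned bases between Ifitm1 and Ifitm3, 81.6% between Ifitm1 and Ifitm2, and 80.8% between Ifitm2 and Ifitm3. The proteins of 106, 144 and 137 residues for Ifitm1, Ifitm2 and Ifitm3 were identical at 70.8%, 67.9% and 73.5% of aligned residues in the same pairs. No stretch of 150 bases, the length of a read, of the Ifitm1 or Ifitm3 transcript occurred in a transcript of another gene, whereas 23.5% of those of Ifitm2 occurred in Gm45717, an annotated gene on the same strand that spans 1101 bp of it and was not analysed here. With stretches of 50 bases, 6.36% of those of Ifitm1, 10.0% of those of Ifitm3 and 48.5% of those of Ifitm2 were shared. The other 6 genes shared no stretch of 150 bases, and the reads of Ifitm2 are uncertain for this reason too.

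**Figure D2:**
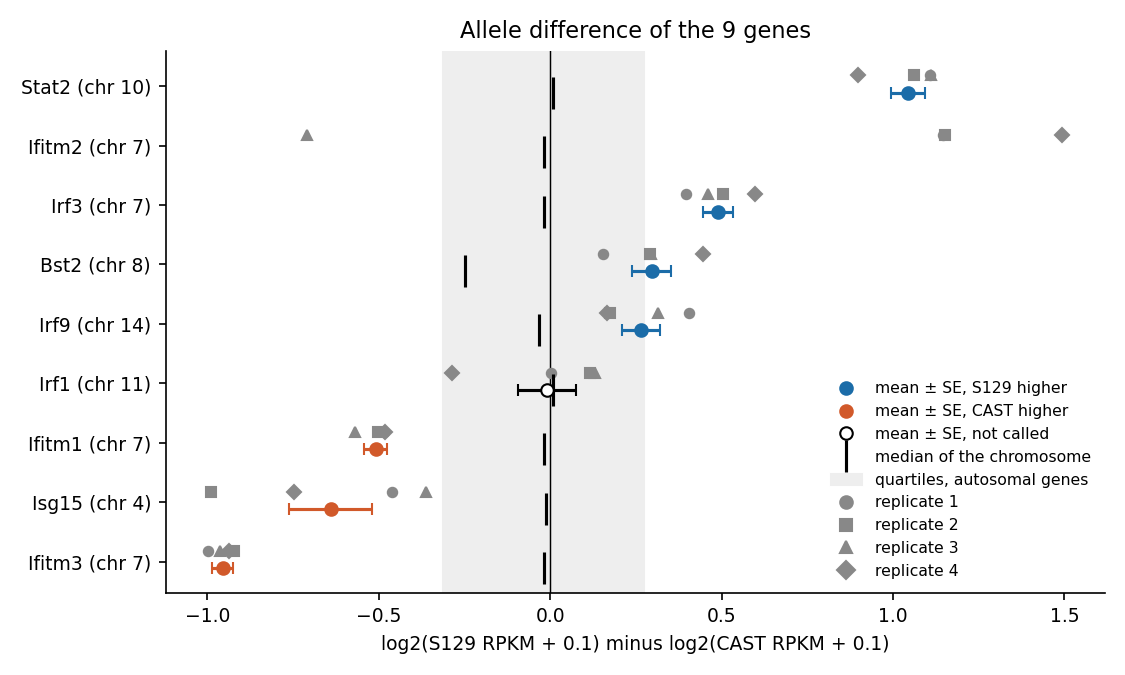
Allele difference, log2(S129 RPKM + 0.1) minus log2(CAST RPKM + 0.1), of the 9 genes; grey symbols are the 4 libraries, coloured points the limma mean ± SE, black ticks the median of the other tested genes on the same chromosome and the grey band the range between the quartiles of autosomal genes. Ifitm3 at -0.96 and Stat2 at 1.04 lie outside the band on either side, Irf1 at -0.01 lies inside it, and Ifitm2, which has no limma mean here, has replicate 3 at -0.71 and the other libraries above 1.

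The Ifitm genes of chromosome 7 (Ifitm5, Ifitm2, Ifitm1, Ifitm3 and Ifitm6) span 69.0 kb. Of these, Ifitm5, known for its expression in bone-forming cells, was at 3.37 ± 0.570 RPKM with a log2 difference of 0.23 ± 0.099 (SE, limma, adjusted p = 0.106). Ifitm6, at 0.171 ± 0.0977 RPKM and 22 reads, was not tested. Outside the cluster, Ifitm10 was at 0.247 ± 0.0374 RPKM on chromosome 7 and was not tested, and Ifitm7 was at 0.830 ± 0.0668 RPKM on chromosome 16 with a log2 difference of 0.36 ± 0.37 (SE, limma, adjusted p = 0.439). Within 500 kb of the cluster, 59 other genes were listed and 39 of them were tested, of which 9 had S129 higher, 7 CAST higher and 23 were not called. Of all genes tested, 62.7% were called, with S129 higher at 31.4% and CAST higher at 31.3%. The median log2 difference of the 39 genes was 0.02, with a range of -1.66 to 1.28. The nearest tested genes on the side of Ifitm5 were Pgghg, at -0.10 ± 0.055 (SE, limma, adjusted p = 0.178), and Psmd13, a subunit of the proteasome, at -0.13 ± 0.056 (adjusted p = 0.100). On the side of Ifitm6 these were B4galnt4, at 0.05 ± 0.060 (adjusted p = 0.513), and Pkp3, at 0.02 ± 0.12 (adjusted p = 0.890). These 4 neighbours of Ifitm1 and Ifitm3 were not called.

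**Figure D3:**
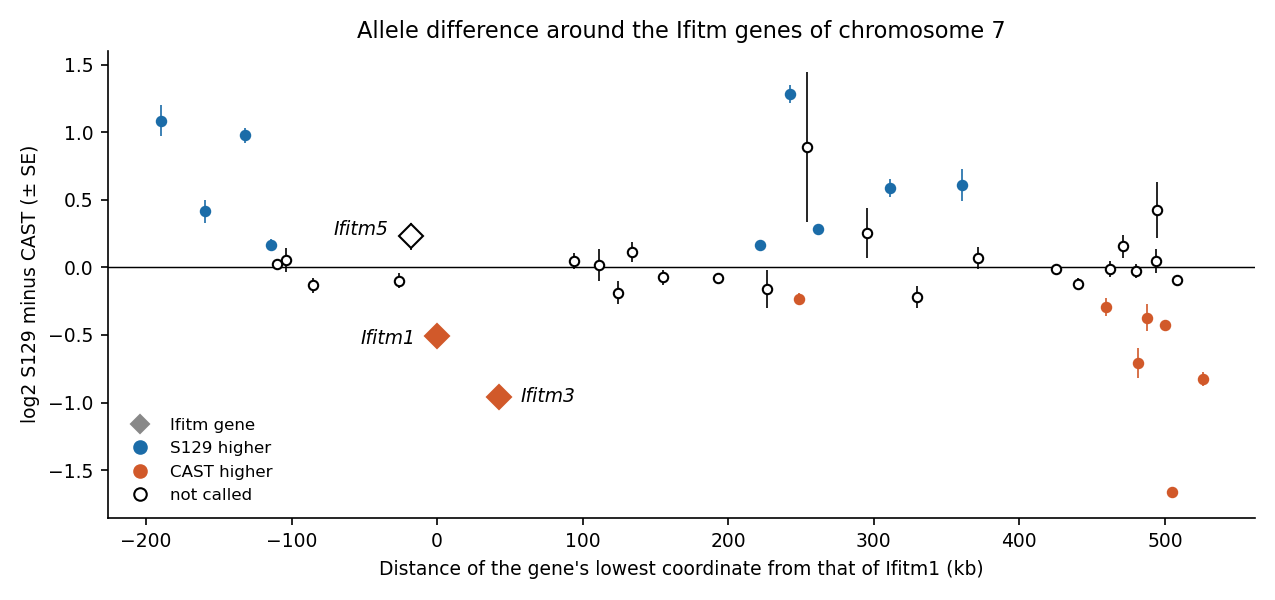
Allele difference (log2 S129 minus CAST, mean ± SE from limma) of the tested genes within 500 kb of the Ifitm cluster, against the distance in kb of their lowest coordinate from that of Ifitm1. Ifitm1 at -0.51 and Ifitm3 at -0.96 lie under genes that were not called on both sides, and the genes with CAST higher on the right begin at 249 kb.

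Stat2, Irf9 and Irf1 encode transcription factors that act downstream of the receptors. Stat2 (ENSMUSG00000040033, chr10:128270559-128292849, plus strand), which provides the activation domain of ISGF3, was at 25.8, 25.1, 28.4 and 25.1 RPKM on S129 and at 11.9, 12.0, 13.1 and 13.4 RPKM on CAST in replicates 1 to 4. The lowest S129 value was well above the highest CAST value. S129 was 2.06-fold higher in all 4 libraries (log2 difference 1.04 ± 0.050, SE, limma, adjusted p = 0.00015), and made up 68.5% of 2709 reads (95% interval 66.7% to 70.2%). This ratio does not depend on the length used, which is the same for both alleles.

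Irf9 (ENSMUSG00000002325, chr14:55603571-55610030, plus strand), the DNA-binding partner of STAT2 in ISGF3, was at 6.13, 6.31, 6.50 and 4.93 RPKM on S129 and at 4.61, 5.57, 5.21 and 4.39 RPKM on CAST. S129 was higher within each library, while the ranges of the alleles overlapped. The log2 difference was 0.26 ± 0.055 (SE, limma, adjusted p = 0.0141), or 1.20-fold, with S129 at 55.8% of 3094 reads (95% interval 54.1% to 57.6%). The call was lost without replicate 3 (0.25, adjusted p = 0.0598) and without the pairing of alleles by library (adjusted p = 0.0876, with no replicate block). The end of Rnf31, at 2.37 RPKM, overlaps Irf9 on the same strand, and the counting could split their shared reads.

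Irf1 (ENSMUSG00000018899, chr11:53770014-53778374, plus strand), an early target of interferon gamma in other cells, was at 13.0, 17.2, 16.0 and 11.1 RPKM on S129 and at 13.0, 15.9, 14.7 and 13.5 RPKM on CAST. The alleles overlapped, and S129 was higher in 3 of 4 libraries and lower in replicate 4. The log2 difference of -0.01 ± 0.085 (SE, limma, adjusted p = 0.936) was smaller than its error, and S129 had 51.4% of 5826 reads (95% interval 50.1% to 52.7%). The median S129 share of the other tested genes of chromosome 11 with at least 400 reads was 51.0%. Without replicate 4 the sign turned (0.08, adjusted p = 0.193).

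Irf3 (ENSMUSG00000003184, chr7:44997648-45002848, plus strand) acts upstream, where it is activated by sensors of viral nucleic acids. It was at 24.2, 29.1, 29.1 and 29.8 RPKM on S129 and at 18.4, 20.5, 21.2 and 19.7 RPKM on CAST, and the lowest S129 value lay above the highest CAST value. The log2 difference was 0.49 ± 0.045 (SE, limma, adjusted p = 0.00103), or 1.40-fold with S129 higher in 4 of 4 libraries, and S129 had 59.2% of 9187 reads (95% interval 58.2% to 60.2%). Irf3 lies on the same chromosome as the Ifitm genes but differed in the opposite direction. Bcl2l12, at 20.2 RPKM, overlaps it by 1065 bp on the opposite strand, and the use of strand in counting is not stated.

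Isg15 and Bst2 are classical targets of interferon. Isg15 (ENSMUSG00000035692, chr4:156199424-156200818, minus strand), with the 3 ISRE matches shown above, was at 4.60, 3.66, 3.99 and 4.86 RPKM on S129 and at 6.36, 7.36, 5.15 and 8.23 RPKM on CAST. CAST was higher in each library without overlap, but by unequal amounts, from -0.36 in replicate 3 to -0.99 in replicate 2 on the log2 scale. The mean difference was -0.64 ± 0.12 (SE, limma, adjusted p = 0.0103), or 1.56-fold. It rested on 776 reads with S129 at 39.8% (95% interval 36.4% to 43.4%), the fewest reads of the genes tested among the 9.

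Bst2 (ENSMUSG00000046718, chr8:71534255-71537456, minus strand) was at 39.8, 40.2, 40.4 and 48.1 RPKM on S129 and at 35.8, 32.8, 33.0 and 35.3 RPKM on CAST. S129 was higher in each library and the values did not overlap. The log2 difference was 0.30 ± 0.057 (SE, limma, adjusted p = 0.0108), or 1.23-fold, with S129 at 55.8% of 5687 reads (95% interval 54.5% to 57.1%). The other tested genes of chromosome 8 had a median difference of -0.25 and a median S129 share of 46.7%, so that Bst2 lay above the rest of its chromosome by 0.54, and with the median of the chromosome taken out of each library the difference was 0.53 (limma, adjusted p = 0.00201). The median of the chromosomes of the other 8 genes lay between -0.03 and 0.01. The median S129 share on these chromosomes, over tested genes with at least 400 reads, lay between 50.3% and 51.1%.

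The libraries differed in the level of these genes. Ifitm3 was at 571, 597, 547 and 865 RPKM in replicates 1 to 4, and the SD of its log2 level over libraries, 0.30, was larger than that of 99.0% of the 100 genes whose level lay within 0.5 log2 units of it. Relative to the mean log2 level of the other libraries, replicate 4 was 1.51-fold for Ifitm3, 1.32-fold for Ifitm1, 1.26-fold for Isg15 and 1.13-fold for Bst2, while it was 0.828-fold for Irf1 and 0.818-fold for Irf9. Stat2 and Irf3 differed less, at 0.994-fold and 1.04-fold. Replicate 4 had the fewest reads, and the median over all genes tested was 0.916-fold. It was 1.00-fold for the 2725 genes with a recovered length under 1000 bp, as Ifitm3, Ifitm1, Isg15, Bst2 and Stat2 have, 1.05-fold for the 580 of these with at least 100 RPKM, and 0.905-fold for the 10612 genes of 1000 bp or more. The part of length and depth in the values of replicate 4 was not tested. Of the marker lists, the summed fibroblast markers were at 197 RPKM in replicate 4, within their range in the other libraries. The summed haematopoietic markers were highest in replicate 4, at 16.5 RPKM against 15.0, 12.9 and 12.7 RPKM in replicates 1 to 3. The summed pluripotency markers were highest there too, at 10176 RPKM against 9770, 8906 and 8683 RPKM. Most of that sum came from Dppa5a, which was highest in replicate 4 on both alleles. Of the other pluripotency markers, all but Tfcp2l1 were lowest in replicate 4 on both alleles. The part of cells marked by these lists in the values of replicate 4 was not tested. The allele differences of Ifitm3 and Ifitm1 in replicate 4 were -0.94 and -0.48, within or beside those of the other libraries, from -1.0 to -0.92 and from -0.57 to -0.48.

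Likeness to each Ifitm gene was measured as the Euclidean distance over the 8 columns of log2(RPKM + 0.1), which share their libraries. The nearest genes to Ifitm1 were Ndufb7, a subunit of respiratory complex I, at a distance of 0.209 with 433 ± 74.7 RPKM, and D8Ertd738e, at a distance of 0.286 with 460 ± 64.2 RPKM. Those nearest to Ifitm3 were Ndufv3, also of complex I, at 0.464, and Cks1b, a partner of cyclin-dependent kinases, at 0.684. The genes nearest to Ifitm2 were farther, Plb1 at 1.42 and Rassf10 at 1.47. The search was made among the genes tested, and Ifitm2, with 59 reads, did not pass that filter itself. The part of the filter and of the few reads in its distances was not tested.

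The rest of the pathway was examined with lists of 103 genes in 9 roles, of which 101 were found among the listed genes. Mb21d1 and Tmem173 were not analysed here. Of the 53 genes tested 17 had S129 higher, 18 had CAST higher and 18 were not called. The share called was 66.0%, close to the 62.7% of all genes tested, and their median log2 difference was -0.05. S129 was higher at 31.4% and CAST at 31.3% of all genes tested, and the counts by role below stand beside these shares. The median of the chromosome shifted the differences of several genes of the lists, since it was 0.69 on chromosome 16 (413 genes tested) and -0.74 on chromosome 3 (622 genes).

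Few reads were assigned to the interferon ligands. Of 21 ligand genes 17 were listed at 0 in each of the 8 columns, among them Ifnb1, and no ligand was tested. The highest was Ifnk, at 0.234 ± 0.117 RPKM and 37 reads. A gene is also listed at 0 where its transcript holds no SNP between the strains or where its reads could not be placed among close copies, as in the Ifna family, and these cannot be told apart here from a lack of expression. All 6 receptor genes were at or above 1 RPKM, with Ifnar1, a chain of the type I receptor, highest at 14.0 ± 1.21 RPKM. S129 was higher at 2 of them, Ifngr2 of the type II receptor (3.59 ± 0.353 against 2.10 ± 0.190 RPKM, log2 difference 0.74 ± 0.057, SE, limma, adjusted p = 0.000586) and Ifnar2, and 4 were not called. Both lie on chromosome 16, and with the median of the chromosome taken out Ifngr2 was at 0.07 (adjusted p = 0.383), Ifnar2 turned to -0.31 (adjusted p = 0.0191) and Ifnar1, which was not called before, was at -0.84 (adjusted p = 0.00152).

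Among the signal transducers, Tyk2, the kinase of the type I receptor that binds IFNAR1, had S129 higher. It was at 11.1 ± 0.732 RPKM on S129 and 5.49 ± 0.360 RPKM on CAST (log2 difference 1.00 ± 0.032, SE, limma, adjusted p = 4.5e-05). The values of its alleles did not overlap, and for Stat2, as given above, S129 was higher too. Jak1, at 2.42 ± 0.210 RPKM, and Jak2, at 3.24 ± 0.259 RPKM, were not called, with differences of -0.07 ± 0.17 and -0.05 ± 0.047 (adjusted p = 0.757 and 0.364).

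Of the 6 other IRF genes, 3 were tested. Irf5, an activator of inflammatory genes, had S129 higher, at 1.59 ± 0.291 against 0.545 ± 0.0580 RPKM (log2 difference 1.38 ± 0.16, SE, limma, adjusted p = 0.00214). Irf7 was not called. Among the sensors and adaptors, 3 of 7 tested genes had S129 higher, 2 had CAST higher and 2 were not called. Trim25, a ubiquitin ligase that acts on RIG-I, was highest at 76.4 ± 8.41 RPKM, with S129 higher (0.37 ± 0.034, SE, limma, adjusted p = 0.00108). Its RPKM used a length of 1433 bp, against 5754 bp of all annotated exons. The largest differences were those of Ddx58, which encodes RIG-I, at 9.47 ± 0.529 RPKM on S129 and 3.74 ± 0.420 RPKM on CAST (1.32 ± 0.079, adjusted p = 0.000282), and with CAST higher Mavs, its adaptor on mitochondria, at 5.30 ± 0.372 against 6.19 ± 0.636 RPKM (-0.22 ± 0.054, adjusted p = 0.0233). The third gene with S129 higher was Ikbke, and the other one with CAST higher was Traf3.

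Many of the interferon target genes were low. Of 40 listed, 19 reached 1 RPKM, Ccl5 was listed at 0, and 24 were tested, of which 7 had S129 higher, 12 had CAST higher and 5 were not called. Among the 12 of them whose alleles summed to at least 5 RPKM, 1 had S129 higher and 8 had CAST higher with the fit made on such genes alone. In that fit 34% of all 9858 genes tested had S129 higher and 35.9% CAST higher. Of the target genes by level, the first places depended on the length used. Adar, which edits double-stranded RNA, was highest at 33.4 ± 2.76 RPKM with a length of 1668 bp. With the 8118 bp of all its annotated exons it was at 6.87 RPKM, in the eighth place of the list, and Pml, a component of nuclear bodies, was highest at 20.9 RPKM. Adar had CAST higher by -0.77 ± 0.046 (SE, limma, adjusted p = 0.000284). It lies on chromosome 3, and with the median of the chromosome taken out the difference was -0.05 (adjusted p = 0.406). The largest difference was that of Oas1a, one of the oligoadenylate synthetases that activate RNase L, at 2.07 ± 0.163 RPKM on S129 and 27.2 ± 1.08 RPKM on CAST (-3.65 ± 0.072, adjusted p = 1.13e-05), on chromosome 5. Oas1a belongs to a family of close copies whose reads the counting could split, so that this value is uncertain. On the other side, Ifit2, which binds viral RNA, was at 0.839 ± 0.0692 RPKM on S129 and 0.230 ± 0.0657 RPKM on CAST (1.53 ± 0.11, adjusted p = 0.000489).

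Of 6 negative regulators 5 were tested and all 5 were called, against 62.7% of all genes tested. Ptpn2, a phosphatase that acts on JAK and STAT proteins, was highest at 14.6 ± 1.11 RPKM with CAST higher (-0.30 ± 0.094, SE, limma, adjusted p = 0.0452), and its call was lost without the filter on low values (adjusted p = 0.0726). Usp18, which removes ISG15 from proteins, was at 2.43 ± 0.704 RPKM on S129 and 0.868 ± 0.135 RPKM on CAST (1.36 ± 0.19, adjusted p = 0.00381, 152 reads). Nlrc5, known as a brake on the response and also as the transactivator of MHC class I genes, was at 4.54 ± 1.27 RPKM on S129 and 12.6 ± 1.23 RPKM on CAST (-1.49 ± 0.21, adjusted p = 0.00411), with a length of 346 bp in its RPKM against 8493 bp of all annotated exons. The others were Socs1, with S129 higher (0.95, adjusted p = 0.000705), and Pias1, with CAST higher. Socs1 lies on chromosome 16, and with the median of the chromosome taken out it was at 0.27 (limma, adjusted p = 0.0363). In the same setting Usp18 was at 1.16 and Nlrc5 at -1.25. The genes for the conjugation of ISG15 were not called. Uba7, the activating enzyme, was at 1.85 ± 0.179 RPKM with a difference of -0.01 ± 0.27 (SE, limma, adjusted p = 0.977), and Herc6, the ligase, at 0.600 ± 0.0985 RPKM with -0.43 ± 0.17 (adjusted p = 0.0829). With the median of the chromosome taken out, Herc6 had CAST higher (-0.63, adjusted p = 0.0312). The RPKM of Uba7 used 415 bp of the 6692 bp of all its annotated exons, and with the latter it was at 0.115 RPKM, under Herc6 at 0.308 RPKM. Ube2l6, the conjugating enzyme, had 2 reads and was not tested.

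**Figure D4:**
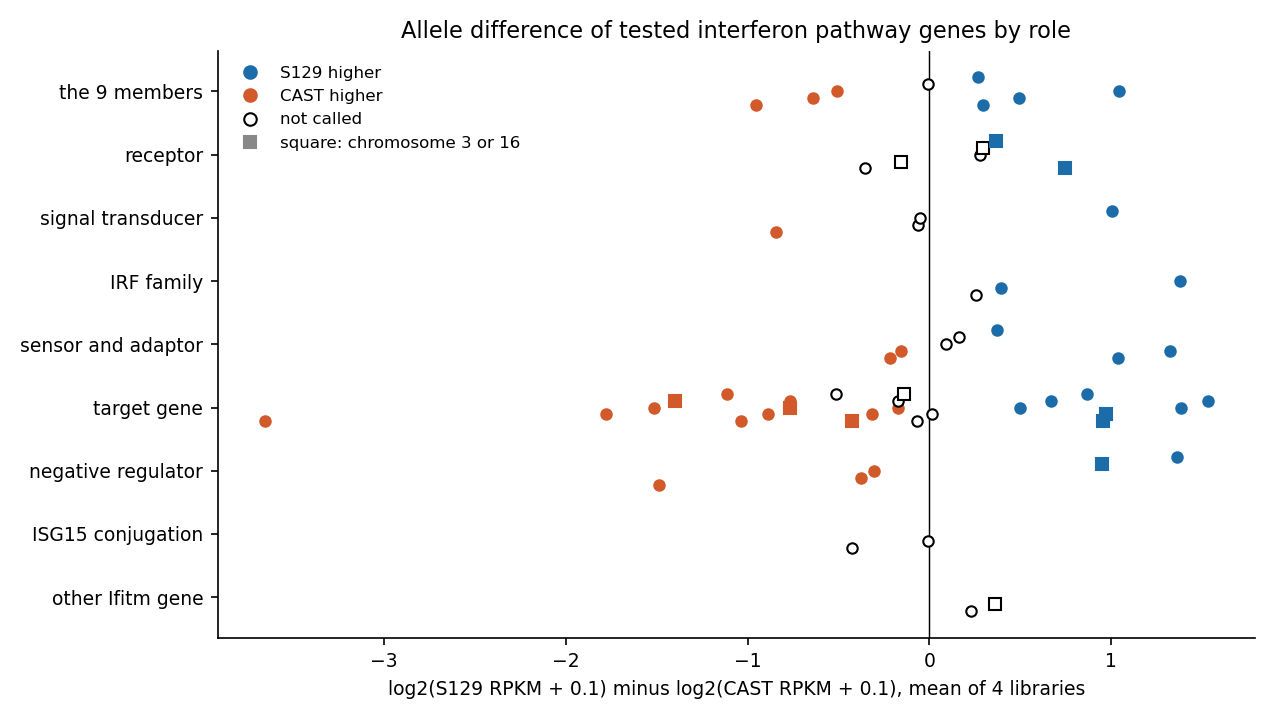
Allele difference (log2 S129 minus CAST on RPKM + 0.1, mean of 4 libraries) of the tested interferon pathway genes, 1 row per role and 1 point per gene; filled points were called by limma, open points were not, and squares lie on chromosomes 3 and 16. Calls in both directions stand in the row of the 9 genes and in 4 of the 8 other roles, the receptors and the IRF genes have S129 higher alone, and Oas1a at -3.65 is farthest from 0.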

How the data were processed

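RPKM per gene and allele were deposited for 4 RNAseq libraries of untreated F123-ESCs. The authors filtered rRNA with SortMeRNA, trimmed reads with Trimmomatic (0.40), aligned them with STAR to mm10 masked at the SNPs between the strains, assigned them to S129 or CAST with SNPsplit, and computed RPKM from the reads, the total and the gene length. The counter and the gene annotation are not given in the sources used here. The deposited averages and log10 values were not used, and no column belonged to another sample. The first S129 column, whose number carries a minus sign, was read as replicate 1.

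Genes were matched to GENCODE M21 by Ensembl identifier (23995 of 24026). Totals, lengths and whole reads were recovered from the steps of the RPKM, within 0.02 reads, for 20134 of 20243 genes above 0 (99.5%). The total was that of the allele in the library, which makes the depth 16716721 to 28772351 reads. For 1004 genes the length was searched and is the shortest possible.

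Alleles were compared with limma (3.58.1, R 4.3.3) on log2(RPKM + 0.1), S129 minus CAST within each library, without a variance trend, in genes whose alleles summed to at least 1 RPKM, with Benjamini-Hochberg adjustment and a threshold of 0.05. The fold changes are on this scale and understate the change of low genes. The pairing follows from both alleles being reads of one library. Over 11946 genes, deviations from the allele means correlated by 0.146 to 0.234 between columns of one number and by -0.187 to 0.151 between others. These ranges overlapped slightly. Differences between pairs of genes, taken within each library, were tested by exact sign-flip permutation. Shares are given with Clopper-Pearson intervals. The recovery and limma were tested on simulated data. Sequence likeness was computed with Biopython (1.88).

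Besides the 9 genes, the text names in each role the gene with the highest level and the largest called difference in each direction, each gene of roles with 4 or fewer genes, the 2 nearest tested genes on either side of the Ifitm cluster, and the 2 nearest genes by distance. Ifnb1, Ifnar2, Irf7, Ikbke, Traf3, Socs1, Pias1, Pml and Ccl5 were named after their values were seen. Some results that this rule selects are not reported here. The genes and lists were chosen with earlier results of these data known. Alternatives were other pseudocounts, filters, lengths and scalings, centring, a variance trend, protein-coding genes alone, no pairing, pooled reads, each allele alone, bases before the start alone, and each library left out.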

Additional observations from a re-analysis of the deposited data

Results flagged for a closer look

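The level and the S129 share of each of the 9 genes were examined for a library that stands apart from the other libraries, by Dixon's criterion for 4 values. Of these 18 quantities 2 passed, and about 1 in 20 passes by chance, that is, 0.9 of 18. The level of Ifitm3 in replicate 4 was 865 RPKM, against 547 to 597 RPKM in the other libraries. The level of Irf3 in replicate 1 was 21.3 RPKM, against 24.7 to 25.1 RPKM in the other libraries. No S129 share passed, Ifitm3 and Irf3 included, and the share of Ifitm3 in replicate 4 was 35.2%.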

How the results depend on the processing

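The calls of Ifitm1, Ifitm3, Stat2, Irf3, Isg15 and Bst2 kept their direction and stayed under an adjusted p of 0.05 by limma in all 14 alternatives. That of Irf9 kept its direction, was lost in 2 of them (no replicate block, 0.26, adjusted p = 0.0876; without replicate 3) and ranged from 0.22 to 0.32 over all. The block changed no other call of the 9 genes. Irf1 was not called in any alternative and turned sign in 3, to 0.046 with reads that were not scaled to the total, to 0.0145 with the autosomal median taken out and to 0.083 without replicate 4, with a range of -0.055 to 0.083 over the libraries left out. Counts of calls among the 9 genes were 3 or 4 with S129 higher and 3 with CAST higher. With a filter of 5 RPKM, 8 of 29 tested pathway genes had S129 higher and 13 CAST higher, against 17 and 18 of 53. Of all 9858 genes tested with that filter, 34% had S129 higher and 35.9% CAST higher. Target genes with S129 higher went from 7 of 24 to 1 of 12, and those with CAST higher from 12 of 24 to 8 of 12. The cause was not tested. Of the 8 neighbouring pairs in the order of levels, 7 kept their order with the length of all annotated exons, with values rescaled to one sum, with S129 alone and with CAST alone, and 7 to 8 with a library left out. With the median of the chromosome taken out, receptors with S129 higher fell from 2 to 0 and those with CAST higher rose from 0 to 2, and Herc6 became called. Without the filter 4 of 5 negative regulators were called. The lengths of all annotated exons for pathway and marker genes were tried after seeing the data. The direction of the 3 differences between Ifitm genes held with a pseudocount of 1 and without each library. Without replicate 4, Ifitm3 was at 572 RPKM. Depth limits Ifitm2, with 59 reads, and Isg15, with 776.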
